A study of Mus musculus with 42 samples.

Results

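The 8 bulk RNA-seq libraries described here are the 4 labelled RST day 21 and the 4 labelled LST day 35, out of 24 libraries of joint soft tissue and 42 libraries in the series. They were chosen by their labels, but with earlier results of these data known, as were the gene lists used below. Every expressed gene was tested: 16149 of the 36604 genes in the count table passed the filter on low counts. The series is a mouse study of repair and immune responses after knee arthroplasty surgery. Both groups came from wild-type C57BL/6 mice, and the tissue was the soft tissue of the joint, flash frozen, with RNA extracted in Trizol and 100 ng of it made into each library with a NEBNext Ultra II kit. RST stands for samples labelled with days 3, 7, 14, 21 and 35, and LST is labelled with day 35 alone. The labels do not spell out either abbreviation, and they give neither the age of the mice nor whether the 4 replicates of a group were separate animals. The p-values therefore measure a spread between libraries that may be technical. That spread was estimated within the groups over all 24 joint libraries. Label and day differ together between the groups, so an effect of RST against LST and an effect of day 21 against day 35 cannot be told apart.

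Soft tissue around a joint comprises synovium, capsule, ligament, tendon, fat, vessels, nerves and the neighbouring muscle. After surgical injury, neutrophils and then monocytes enter the tissue, fibroblasts divide and lay down a collagen-rich provisional matrix, and that matrix is later cross-linked and remodelled by proteases. Macrophages change over the same period from inflammatory cells toward cells that take up debris and lipid.

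The 4 RST day 21 libraries held 20563850 to 24814864 counts and the 4 LST libraries 23275924 to 28024003. Mitochondrially encoded genes took 8.26% to 10.4% of the counts in RST day 21 and 9.73% to 11.1% in LST. RST day 21 replicate 2 stood apart from the other 3 of its group. Over all genes tested, its root mean square difference in log2 CPM (counts scaled to a common library size with TMM factors) was 0.314 from the mean of the RST day 14 libraries and 0.587 from the mean of the other day 21 libraries. Replicates 1, 3 and 4 lay at 0.583, 0.654 and 0.445 from the day 14 mean, and at 0.404, 0.476 and 0.343 from the mean of the others of their own day. Replicate 1 lay at 0.401, replicate 3 at 0.355 and replicate 4 at 0.499 from the mean of the RST day 35 libraries. Replicate 3, and replicate 1 by a narrow margin, were therefore nearer to that day than to the others of their own. The mean of those others includes replicate 2. List counts against LST are given with all 4 day 21 libraries and again without replicate 2.

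**Figure D1:**
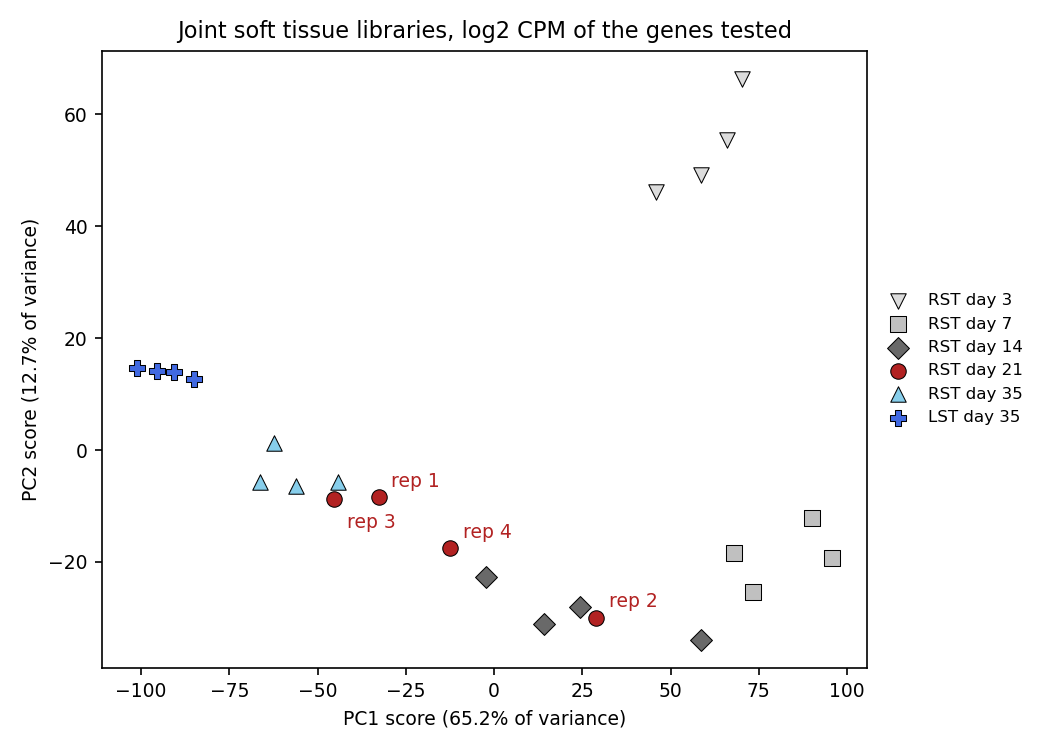
Principal components of log2 CPM over the genes tested for the 24 joint soft tissue libraries (PC1 score, 65.2% of the variance, against PC2 score, 12.7%), 1 point per library. RST day 21 replicate 2, at a PC1 score of 28.9, sits among the RST day 14 libraries, and replicates 1, 3 and 4, at -32.63, -45.31 and -12.46, have scores between those of RST day 14 and LST, and replicate 3 lies within the range of RST day 35, which is -66.42 to -44.09.

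RST day 21 differed from LST day 35 mainly in genes that were higher. With edgeR's quasi-likelihood test at an adjusted p under 0.05, 3499 genes were higher (21.7% of those tested) and 876 were lower (5.42%). Beyond 2-fold, 1975 were higher (12.2%) and 38 lower (0.235%). Without replicate 2, 2316 of 16411 genes were higher (14.1%) and 186 lower (1.13%). Of the 3499 higher genes, 2307 were also higher without that library (65.9%), while 176 of the 876 lower ones were also lower without it (20.1%). The median log2 fold change over all genes tested was 0.02. These are bulk tissue libraries, so a change in the number of cells of a type and a change in RNA per cell cannot be told apart.

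**Figure D2:**
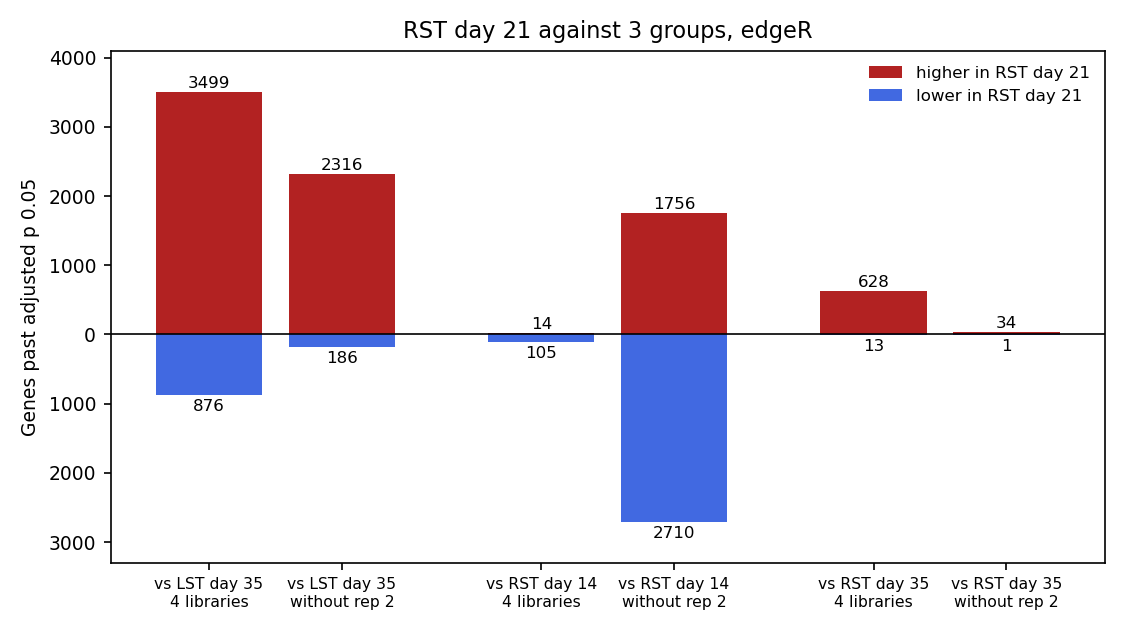
Number of genes past an edgeR adjusted p of 0.05 (bars up for higher and down for lower in RST day 21) against LST day 35, RST day 14 and RST day 35, each with all 4 day 21 libraries and without replicate 2. The bars against LST shrink to 2316 and 186 without replicate 2, those against RST day 14 grow to 1756 and 2710, and those against RST day 35 shrink to 34 and 1.

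Genes of the extracellular matrix were higher in RST day 21 in every matrix list examined. Among fibril-forming and associated collagens, 16 of 18 tested members rose and 0 fell, with a median log2 fold change of 2.54, and without replicate 2 the count was 16 again with a median of 2.12. The summed CPM of this list was 4929 to 20030 in RST day 21 and 1087 to 1258 in LST. Col1a1, a chain of the main collagen of scar and tendon, measured 1749, 5341, 1113 and 2631 CPM in RST day 21, against 204, 185, 188 and 200.4 CPM in LST day 35. Replicate 2 was the highest and replicate 3 the lowest of the day 21 libraries, and the lowest still lay several fold above every LST library (log2 fold change 3.80 ± 0.36, SE, edgeR adjusted p 2.88e-07). Without replicate 2 the log2 fold change of Col1a1 was 3.23. Col3a1, the early repair collagen, and Col12a1, a fibril-associated collagen of tendon and ligament, had log2 fold changes of 3.56 ± 0.33 and 3.91 ± 0.42.

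The enzymes that make collagen usable rose with it: of the hydroxylases, chaperones, propeptide proteases and cross-linking oxidases, 17 of 21 tested members rose and 0 fell (median 1.56, and 16 rose without replicate 2, median 1.16). P4ha3, a prolyl hydroxylase subunit, measured 9.51, 33.4, 5.65 and 14.3 CPM in RST day 21, against 0.141, 0.456, 0.554 and 0.563 CPM in LST day 35. The groups did not overlap, and the log2 fold change was 5.20 ± 0.54 (edgeR adjusted p 6.37e-07). Lox, the lysyl oxidase that starts collagen and elastin cross-linking, reached 62.9, 199.8, 40.3 and 80.96 CPM in RST day 21, against 10.7, 11.3, 14.99 and 14.3 CPM in LST (log2 fold change 2.91 ± 0.36). Among elastic fibre genes 14 of 17 tested members rose and 0 fell (median 1.34), and without replicate 2, 12 rose and 0 fell. Elastin itself was more even across the day 21 libraries than the collagens were: Eln measured 82.1, 119.9, 95.9 and 123 CPM in RST day 21, against 39.9, 23.4, 30.97 and 39.8 CPM in LST day 35, and its log2 fold change was 1.65 with replicate 2 and 1.58 without it. Ltbp2, a fibrillin-binding protein, and Fbn2, the fibrillin of growing tissue, had larger log2 fold changes of 4.54 ± 0.39 and 5.01 ± 0.58. Small proteoglycans and basement membrane genes changed less, with 8 of 10 higher at a median of 0.90 and 8 of 12 higher at a median of 0.56, and none lower (8 and 6 higher without replicate 2).

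Matricellular proteins, which sit in the matrix and act on cells rather than bear load, had the highest median of the matrix lists. 16 of 17 tested members rose and none fell, with a median log2 fold change of 3.18, and 16 rose without replicate 2 (median 2.51). Tnc, tenascin C of injured connective tissue, measured 162, 354, 83.5 and 216 CPM in RST day 21, against 8.62, 6.66, 6.13 and 5.53 CPM in LST day 35. Tnn, a relative known from bone and periosteum, measured 29.5, 124, 20.7 and 35.6 CPM in RST day 21, against 0.801, 0.410, 0.767 and 0.461 CPM in LST day 35. Postn, a collagen-binding protein of healing matrix, measured 198, 615, 137 and 254 CPM in RST day 21, against 11.9, 10.4, 13.8 and 10.5 CPM in LST day 35. In each of these 3 genes the lowest day 21 library was above the highest LST library, and their log2 fold changes were 4.92 ± 0.41, 6.41 ± 0.56 and 4.69 ± 0.40 (edgeR adjusted p 1.13e-07, 1.16e-07 and 1.13e-07). Spp1, which encodes osteopontin, a product of macrophages and of bone and matrix cells, measured 209.5, 616, 126 and 363 CPM in RST day 21, against 7.16, 4.38, 5.32 and 5.32 CPM in LST day 35, a log2 fold change of 5.89 ± 0.48. The member that did not pass was Ccn1, with a log2 fold change of 0.40 (adjusted p 0.438).

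Matrix-degrading enzymes and their inhibitors were higher together. Of the matrix metalloproteases, 10 of 13 tested members rose and 0 fell (median 2.41), and without replicate 2, 9 rose and 0 fell (median 1.86). Mmp13, a collagenase, measured 32.9, 201, 41.6 and 83.7 CPM in RST day 21, against 2.69, 0.775, 1.24 and 0.972 CPM in LST day 35. Mmp12, the macrophage elastase, measured 11.04, 22.1, 15.5 and 17.8 CPM in RST day 21, against 0.188, 0.182, 0.128 and 0.205 CPM in LST day 35. Mmp3, stromelysin, measured 17.6, 49.6, 9.93 and 19.97 CPM in RST day 21, against 0.848, 0.912, 1.45 and 1.38 CPM in LST day 35. For Mmp13 and Mmp3 replicate 2 was the highest of the day 21 libraries by a wide margin, while the day 21 libraries of Mmp12 lay within a narrow band, and none of the 3 genes overlapped LST. The log2 fold changes were 5.99 ± 0.59 for Mmp13, 6.54 ± 0.55 for Mmp12 and 4.41 ± 0.45 for Mmp3, with 5.21, 6.36 and 3.77 without replicate 2. Mmp14 and Mmp2, a membrane-bound protease and the gelatinase it activates, had log2 fold changes of 3.32 ± 0.33 and 2.87 ± 0.31. Mmp9, the gelatinase of neutrophils and osteoclasts, passed the test (log2 fold change 2.41 ± 0.57, adjusted p 0.0028) although its ranges overlapped, at 13.2, 57.6, 8.501 and 39.5 CPM in RST day 21, against 11.8, 3.24, 4.47 and 3.02 CPM in LST day 35. Among protease inhibitors and plasminogen activation genes, 10 of 13 tested members rose and 0 fell, with 8 higher without replicate 2. Timp1, the inducible inhibitor of these proteases, measured 29.8, 87.5, 19.03 and 48.1 CPM in RST day 21, against 1.37, 1.003, 1.11 and 1.53 CPM in LST day 35 (log2 fold change 5.21 ± 0.49), whereas Timp3 and Timp4 had log2 fold changes of -0.08 and -0.59 and did not pass (adjusted p 0.678 and 0.176).

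The sequence before the start site is shown for the metalloprotease genes that share a letter pattern there, since Mmp13, Mmp12 and Mmp3 all rose and lie near each other on chromosome 9. The pattern searched was TGANTCA, the letters of the activator protein 1 element, which reads the same on both strands, in the 250 bases before each start site in the RefSeq promoter table (GRCm38.p6). It was found in 2217 of 32851 windows (6.75%), which belong to 2113 of 27025 genes (7.82%), and in 4 of the 10 metalloprotease genes that have a window. Mmp12 has a second window that does not hold it. The Mmp12 window shown lies inside the gene, whose first base in GENCODE M21 is 7344381, so the start site used for it is internal. All 4 genes are on the plus strand, and the 100 bases before each start site are given 5′ to 3′ with the pattern in capitals. The pattern begins 35 bases before the start of Mmp13, 44 before the internal start of Mmp12, 46 before Mmp3 and 63 before Mmp10. Mmp10 did not pass the filter on low counts and has no test. A match describes letters and is not a measured binding site.
Mmp13, chr9:7272414-7272513: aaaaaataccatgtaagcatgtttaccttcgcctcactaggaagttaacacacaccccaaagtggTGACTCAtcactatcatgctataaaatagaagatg
Mmp12, chr9:7347274-7347373: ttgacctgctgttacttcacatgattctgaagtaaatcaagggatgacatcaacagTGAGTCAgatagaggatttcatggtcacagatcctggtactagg
Mmp3, chr9:7445722-7445821: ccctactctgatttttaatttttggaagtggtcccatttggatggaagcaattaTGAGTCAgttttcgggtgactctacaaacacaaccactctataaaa
Mmp10, chr9:7502242-7502341: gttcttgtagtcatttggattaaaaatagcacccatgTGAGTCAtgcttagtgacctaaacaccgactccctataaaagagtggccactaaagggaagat

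Aggrecanases and related metalloproteases followed the same direction, with 11 of 14 higher, none lower and a median log2 fold change of 1.39 (10 higher without replicate 2). Adam12, a protease of fusing and mesenchymal cells, had a log2 fold change of 4.12 ± 0.53. Of the 2 main aggrecanases, Adamts4 had 2.93 ± 0.45 and Adamts5 0.44 ± 0.15, and Adamts5 no longer passed without replicate 2 (adjusted p 0.219). In the cathepsin and lysosome list 13 of 18 tested members rose and 0 fell (median 0.78, 12 higher without replicate 2). Ctsk, the collagen-cleaving cathepsin of osteoclasts and fibroblasts, measured 66.95, 228, 52.8 and 112 CPM in RST day 21, against 10.7, 6.84, 8.35 and 6.65 CPM in LST day 35 (log2 fold change 3.82 ± 0.37).

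Genes of the synovial lining and of hyaluronan turnover were mixed in size, with 11 of 18 higher and 1 lower (median 1.48), and 10 higher and 1 lower without replicate 2. Cemip, which depolymerises hyaluronan, measured 7.98, 32.8, 8.06 and 14.8 CPM in RST day 21, against 0.330, 0.137, 0.128 and 0.409 CPM in LST day 35, and Has1, a hyaluronan synthase, measured 5.32, 25.6, 6.09 and 19.5 CPM in RST day 21, against 0.895, 0.319, 0.511 and 0.767 CPM in LST day 35. Both were highest in replicate 2 and neither overlapped LST, with log2 fold changes of 6.01 ± 0.55 and 4.52 ± 0.71. Tnfaip6, which loads hyaluronan with heavy chains, and Cd44, its receptor, had log2 fold changes of 3.35 ± 0.60 and 2.78 ± 0.34. The member that fell was Stab2, a scavenger receptor for hyaluronan on sinusoidal and lymphatic endothelium, at 6.68, 5.36, 6.36 and 5.60 CPM in RST day 21, against 9.42, 10.2, 9.58 and 8.75 CPM in LST day 35 (log2 fold change -0.66 ± 0.19, adjusted p 0.0126). Fibroblast genes of the synovium moved less: 9 of 12 rose with a median of 0.59 (7 without replicate 2), led by Fap, the protease of activated fibroblasts (log2 fold change 1.99 ± 0.24). Of integrins and adhesion genes 11 of 19 tested members rose and 0 fell (median 0.70), and without replicate 2, 7 rose and 1 fell. Cdh11, the cadherin of synovial fibroblasts, had a log2 fold change of 3.24 ± 0.38, Itgbl1, a secreted integrin-like protein, of 2.03 ± 0.23, and Itga11, a collagen receptor chain, of 1.71 ± 0.28.

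**Figure D3:**
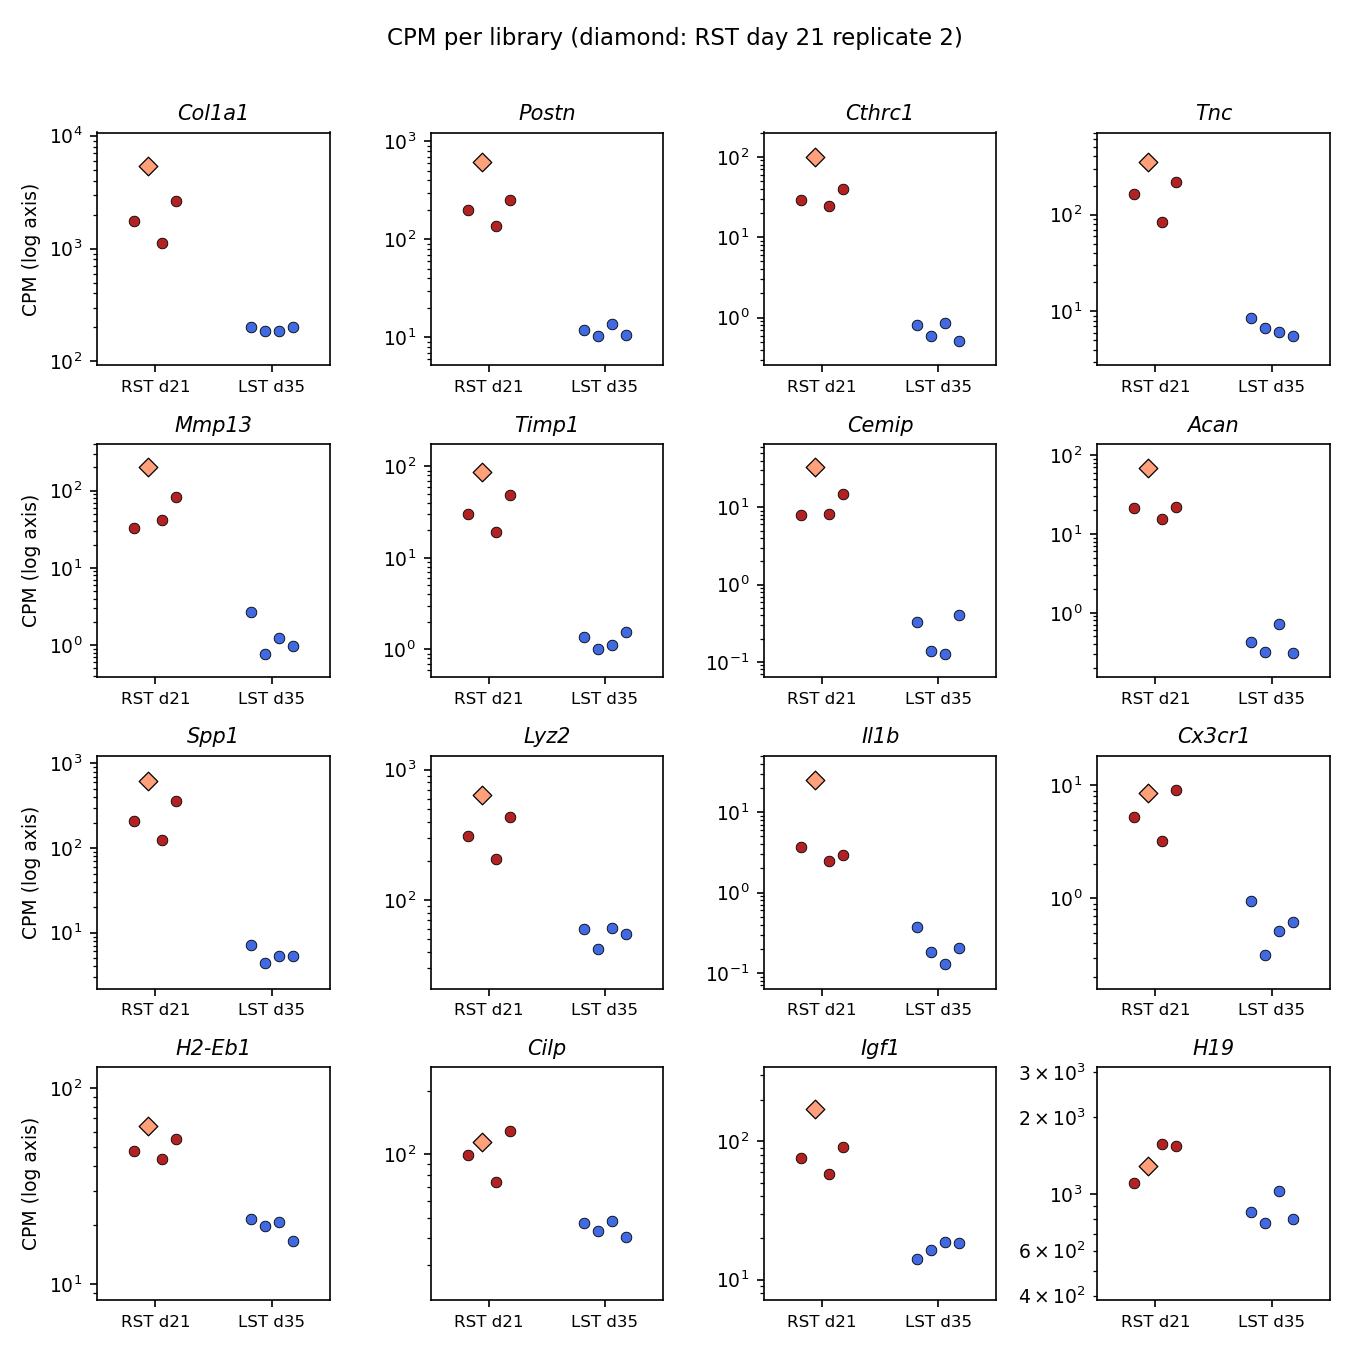
CPM on a log axis in each of the 4 RST day 21 libraries (left) and the 4 LST day 35 libraries (right) for 16 genes of matrix, cartilage, myeloid, growth factor and imprinted lists, with RST day 21 replicate 2 as a diamond. No gene shown overlaps between the groups, and replicate 2 is the highest day 21 library for most of them but not for Cx3cr1, Cilp or H19.

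With all day 21 libraries, most tested genes of the chondrocyte, tendon and osteoclast lists were also higher, but only 4 of 12 osteoblast genes. In the chondrocyte list 11 of 16 tested members rose and 0 fell (median 2.54) and without replicate 2, 7 rose and 0 fell (median 2.39). Its summed CPM was 129 to 431 in RST day 21 and 42.4 to 58.4 in LST, and Matn1 had no count in any of the 8 libraries. Acan, the large proteoglycan of cartilage, measured 21.4, 69.01, 15.4 and 21.9 CPM in RST day 21, against 0.424, 0.319, 0.724 and 0.307 CPM in LST day 35. Comp, a cartilage and tendon matrix protein, measured 77.4, 195, 57.97 and 149.6 CPM in RST day 21, against 13.3, 10.9, 20.7 and 12.9 CPM in LST day 35. Neither overlapped LST (log2 fold changes 6.14 ± 0.52 and 3.05 ± 0.29). Col2a1, the cartilage collagen, was uneven within both groups, at 5.43, 27.9, 10.3 and 70.8 CPM in RST day 21, against 4.90, 1.19, 1.15 and 0.512 CPM in LST day 35, with its highest value in day 21 replicate 4 (log2 fold change 3.88 ± 0.83, adjusted p 0.00117).

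Of the tendon list 9 of 10 tested members rose and 0 fell (median 1.47), with 8 higher without replicate 2 and summed CPM of 409 to 893 in RST day 21 and 255 to 288 in LST. Tnmd, tenomodulin of mature tenocytes, measured 24.5, 45.6, 18.1 and 28.5 CPM in RST day 21, against 3.81, 6.06, 3.28 and 4.81 CPM in LST day 35, a log2 fold change of 2.71 ± 0.24. Cilp, a matrix protein of cartilage and tendon, had 99.4, 114, 73.99 and 129 CPM in RST day 21 and 47.5, 43.5, 48.3 and 40.8 CPM in LST, and its log2 fold change was nearly the same with replicate 2 (1.21) and without it (1.16). In the osteoblast list 4 of 12 tested members rose and 0 fell (median 0.96, 3 higher without replicate 2), with summed CPM of 152 to 643 in RST day 21 and 26.5 to 37.5 in LST that Spp1 dominated. These counts stand beside 21.7% of all genes higher, and 14.1% without replicate 2. The bone matrix gene Ibsp measured 3.68, 3.79, 2.03 and 22.6 CPM in RST day 21, against 4.05, 1.19, 1.62 and 0.665 CPM in LST day 35 and did not pass (adjusted p 0.073), and Bglap, osteocalcin, had a log2 fold change of -0.15 (adjusted p 0.908). Ibsp, Col2a1 and Dmp1, an osteocyte phosphoprotein, each had their highest value in day 21 replicate 4, and the contribution of bone or cartilage in the dissected tissue was not tested. Osteoclast genes were higher in 12 of 14 (median 2.26, 9 without replicate 2), with summed CPM of 149 to 459.6 in RST day 21 and 79.1 to 104 in LST. Among them, Acp5, the tartrate-resistant phosphatase, had a log2 fold change of 3.17 ± 0.48 and Atp6v0d2, a proton pump subunit, of 4.57 ± 0.51, while Calcr and Nfatc1 had 0.03 and 0.01 and did not pass. Dcstamp, the fusion receptor of osteoclasts, had 73 counts over the 4 RST day 21 libraries and 3 over the 4 LST libraries, a ratio of 25.9 with a 95% counting interval of 8.53 to 129.

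Among secreted growth signals the changes fell on some members of each family. In the TGF-beta list 8 of 14 tested members rose and 0 fell (median 0.58, 7 higher without replicate 2). Tgfb1 measured 20.1, 42.4, 17.8 and 30.5 CPM in RST day 21, against 10.4, 6.70, 7.54 and 8.29 CPM in LST day 35 (log2 fold change 1.76 ± 0.27), and the log2 fold changes of the other two ligands, Tgfb2 and Tgfb3, were 0.07 (adjusted p 0.525) and 0.37 (adjusted p 0.0132). In the BMP and activin list 9 of 22 tested members rose and 0 fell, and without replicate 2, 7 rose and 1 fell. Inhba, the activin A subunit, measured 17.9, 40.01, 13.6 and 31.8 CPM in RST day 21, against 4.38, 2.14, 3.41 and 2.25 CPM in LST day 35 (log2 fold change 3.08 ± 0.43), while none of the ligands Bmp2, Bmp4, Bmp6 and Bmp7 passed. The antagonist Grem1 rose with replicate 2 in the fit (log2 fold change 3.43, adjusted p 0.0176) and did not pass without it (1.37, adjusted p 0.451). In the Wnt list 9 of 23 tested members rose and 0 fell, and without replicate 2, 8 rose and 0 fell. Of these, the frizzled receptors Fzd1 and Fzd2 and the ligand Wnt16 had 1.999 ± 0.31, 1.17 ± 0.27 and 2.07 ± 0.36, and the others were secreted modulators. Sfrp2 measured 26.8, 48.9, 19.5 and 31.96 CPM in RST day 21, against 3.44, 3.33, 3.28 and 2.97 CPM in LST day 35 (log2 fold change 3.29 ± 0.29), and Sfrp4, another secreted Frizzled-related protein, and Rspo2, an amplifier of the pathway, had 2.37 ± 0.25 and 3.34 ± 0.61. Axin2, a direct target of the pathway, had a log2 fold change of -0.14 (adjusted p 0.523). Among growth factors and receptors 11 of 23 tested members rose and 1 fell, and without replicate 2, 9 rose and 0 fell. Igf1, insulin-like growth factor 1, measured 75.3, 171, 57.9 and 90.5 CPM in RST day 21, against 14.2, 16.3, 18.6 and 18.4 CPM in LST day 35, without overlap (log2 fold change 2.55 ± 0.24). Hgf, hepatocyte growth factor, and Pdgfc, a platelet-derived growth factor, had log2 fold changes of 3.69 ± 0.53 and 2.47 ± 0.26. The gene that fell was Vegfa, the main vessel growth factor, at 226, 222, 294 and 227 CPM in RST day 21, against 319, 333, 327 and 356 CPM in LST day 35 (log2 fold change -0.46 ± 0.15), and its adjusted p was 0.0256 with replicate 2 and 0.0906 without it.

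Inflammatory cytokine genes were higher, and many of them were far higher in replicate 2 than in the other day 21 libraries. 11 of 16 tested members rose, with a median log2 fold change of 2.15, against 6 without that library (median 1.39). Il1b, interleukin 1 beta, measured 3.68, 25.2, 2.47 and 2.97 CPM in RST day 21, against 0.377, 0.182, 0.128 and 0.205 CPM in LST day 35. Saa3, an acute phase protein made in inflamed tissue, measured 1.98, 15.2, 1.15 and 1.78 CPM in RST day 21, against 0.0471, 0.0912, 0 and 0.0512 CPM in LST day 35. In both genes replicate 2 was several fold above the other day 21 libraries, and those 3 were themselves above every LST library, with log2 fold changes without replicate 2 of 3.74 ± 0.79 for Il1b and 4.98 ± 0.98 for Saa3. Il6, Tnf and Osm passed with replicate 2 (adjusted p 0.00644, 0.0052 and 0.00965) and not without it (adjusted p 0.143, 0.122 and 0.237). Acod1, which makes itaconate in activated macrophages, measured 1.70, 17.1, 0.713 and 1.29 CPM in RST day 21 and had no count in LST. Its level pooled over the day 21 libraries was at least 175-fold higher, against a floor of 3 counts over the group. That bound rests mostly on replicate 2, since the day 21 mean of Acod1 was 5.19 CPM with it and 1.23 CPM without it. Nos2, the inducible nitric oxide synthase, had a log2 fold change of 0.14 (adjusted p 0.658). Chemokine genes rose in 19 of 25 and fell in 1 (median 1.86), with 15 higher and 0 lower without replicate 2. Ccl8, a monocyte attractant of tissue macrophages, was even within the group, at 6.23, 10.3, 4.28 and 6.44 CPM in RST day 21, against 0.377, 0.410, 0.596 and 0.461 CPM in LST day 35 (log2 fold change 3.88 ± 0.39). Cxcl2, a neutrophil attractant, measured 2.04, 15.7, 1.54 and 2.18 CPM in RST day 21, against 0.0471, 0.137, 0 and 0 CPM in LST day 35. Cxcl5, another, measured 1.92, 15.7, 1.54 and 2.13 CPM in RST day 21, against 0.0942, 0.0456, 0.0426 and 0.102 CPM in LST day 35. Both were several fold higher in replicate 2 than in the other day 21 libraries, and neither overlapped LST. Cxcl13, the B cell attractant, fell (log2 fold change -1.47 ± 0.52, adjusted p 0.0405) and did not pass without replicate 2 (adjusted p 0.0578).

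The largest gaps between replicate 2 and the highest other day 21 library, given as a description, were in Slc7a11 (log2 gap 3.47), Acod1 (3.26), Hcar2 (2.91), Saa3 (2.89), Clec4e (2.88), Cxcl5 (2.83), Cxcl2 (2.80) and Il1b (2.75). Slc7a11, the cystine transporter, had 0.792, 12.9, 0.987 and 1.09 CPM in RST day 21 and 0.141, 0, 0.0852 and 0 CPM in LST. Hcar2, the niacin receptor of myeloid and fat cells, had 0.905, 7.34, 0.439 and 0.892 CPM in RST day 21 and 0.377, 0.319, 0.128 and 0.409 CPM in LST. Its difference from LST passed with replicate 2 (log2 fold change 3.02, adjusted p 0.0131) and not without it (1.28, adjusted p 0.34).

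Genes of recruited monocytes and macrophages were higher in both settings, with summed CPM of 255 to 834 in RST day 21 and 51.9 to 79.9 in LST. 16 of 18 rose, with a median log2 fold change of 2.71, and 15 rose without replicate 2 (median 2.36), while Ly6c2 and Chil3, which mark early inflammatory monocytes, had log2 fold changes of 0.94 and -0.55 and did not pass (adjusted p 0.329 and 0.621). Lyz2, lysozyme of myeloid cells, measured 311, 640.5, 205 and 435 CPM in RST day 21, against 59.6, 41.7, 60.6 and 54.8 CPM in LST day 35 (log2 fold change 2.88 ± 0.28). Ms4a7, a macrophage membrane protein, had a log2 fold change of 4.11 ± 0.42, and Adgre1, which encodes F4/80, of 2.51 ± 0.34. Arg1, the arginase of alternatively activated macrophages, measured 0.509, 3.19, 0.713 and 0.892 CPM in RST day 21, against 0.0471, 0.0912, 0 and 0.102 CPM in LST day 35 (log2 fold change 4.48 ± 0.998). Clec4e, which encodes the receptor Mincle, had 361 counts over RST day 21 and 2 over LST, a ratio of 192 with a 95% counting interval of 52.9 to 1590. Most of these counts came from replicate 2, at 1.36, 11.8, 0.713 and 1.54 CPM in RST day 21. The interval covers counting error only, and the edgeR log2 fold change of Clec4e was 7.13 with replicate 2 and 5.41 without it. The lipid-handling macrophage list had 10 of 13 higher in both settings (medians 2.69 and, without replicate 2, 2.23). Trem2, a lipid-sensing receptor, measured 8.49, 16.3, 5.98 and 11.7 CPM in RST day 21, against 0.283, 0.410, 0.341 and 0.409 CPM in LST day 35 (log2 fold change 4.88 ± 0.43), whereas the lipase Lpl and the fatty acid receptor Cd36 had log2 fold changes of -0.52 and -0.17 and did not pass.

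Most resident macrophage genes were higher. 10 of 16 rose and 1 fell (median 1.15), with the same counts without replicate 2 and summed CPM of 399 to 690.4 in RST day 21 and 245 to 298 in LST. The share of all genes tested that fell was 5.42%, and 1.13% without replicate 2. Cx3cr1, the fractalkine receptor, measured 5.26, 8.59, 3.24 and 9.17 CPM in RST day 21, against 0.942, 0.319, 0.511 and 0.614 CPM in LST day 35 (log2 fold change 3.47 ± 0.42). The complement C1q chains C1qa, C1qb and C1qc had log2 fold changes of 1.88 ± 0.26, 2.01 ± 0.27 and 1.69 ± 0.26, and Mrc1, the mannose receptor, of 1.17 ± 0.22. Timd4, a phosphatidylserine receptor of long-lived resident macrophages, fell, at 0.509, 0.444, 0.494 and 0.446 CPM in RST day 21, against 1.51, 0.593, 0.894 and 1.18 CPM in LST day 35 (log2 fold change -1.13 ± 0.33, adjusted p 0.0126), and without replicate 2 its log2 fold change was -1.10 (adjusted p 0.0452). Cd163 and Lyve1, also of resident macrophages, had log2 fold changes of -0.48 and 0.28 and did not pass.

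All 14 tested Fc receptor and ITAM adaptor genes rose (median 2.55), and 13 of them passed without replicate 2. The inhibitory receptor Fcgr2b and the activating receptors Fcgr3, Fcgr1 and Fcgr4 had log2 fold changes of 2.19 ± 0.27, 2.08 ± 0.28, 2.41 ± 0.40 and 3.94 ± 0.64, and the adaptors Tyrobp and Fcer1g of 2.69 ± 0.34 and 2.22 ± 0.33. In the Toll-like receptor list 13 of 16 tested members rose and 0 fell (median 1.55), falling to 9 higher without replicate 2. Tlr2, a sensor of bacterial lipoproteins, measured 5.72, 15.4, 4.44 and 6.89 CPM in RST day 21, against 1.41, 1.14, 1.32 and 1.28 CPM in LST day 35 (log2 fold change 2.67 ± 0.40), and Tlr4, the endotoxin receptor, had an adjusted p of 0.0283 with replicate 2 and 0.19 without it. Complement genes rose in 15 of 20 and fell in none (median 0.99, 12 higher without replicate 2). The receptors C3ar1 and Itgax had log2 fold changes of 3.12 ± 0.41 and 3.56 ± 0.40, and C3, the central component, of 0.40 (adjusted p 0.255). NADPH oxidase and iron genes rose in 8 of 12 in both settings, among them Cyba, an oxidase subunit, and Hmox1, heme oxygenase (1.91 ± 0.27 and 1.81 ± 0.30).

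Antigen presentation by class II rose in 10 of 11 tested members, and in as many without replicate 2, with a median log2 fold change of 1.32 and, without it, 1.12. H2-Eb1, a class II chain, measured 47.8, 63.8, 43.6 and 54.8 CPM in RST day 21, against 21.5, 19.9, 20.7 and 16.6 CPM in LST day 35 (log2 fold change 1.42 ± 0.17). H2-Aa, H2-Ab1, the invariant chain Cd74 and their transactivator Ciita had 1.39 ± 0.19, 1.32 ± 0.17, 1.08 ± 0.16 and 1.08 ± 0.26. Of the type I list 10 of 24 rose (median 0.87), against 3 without replicate 2, which were Oas1a, Ddx58 and Zbp1, all sensors of nucleic acid. Over all genes tested the shares were 21.7% and, without replicate 2, 14.1%. Of the interferon-gamma list 6 of 18 rose, against 1 without replicate 2, the guanylate binding protein Gbp3. Without replicate 2 neither list exceeded the share of all genes.

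**Figure D4:**
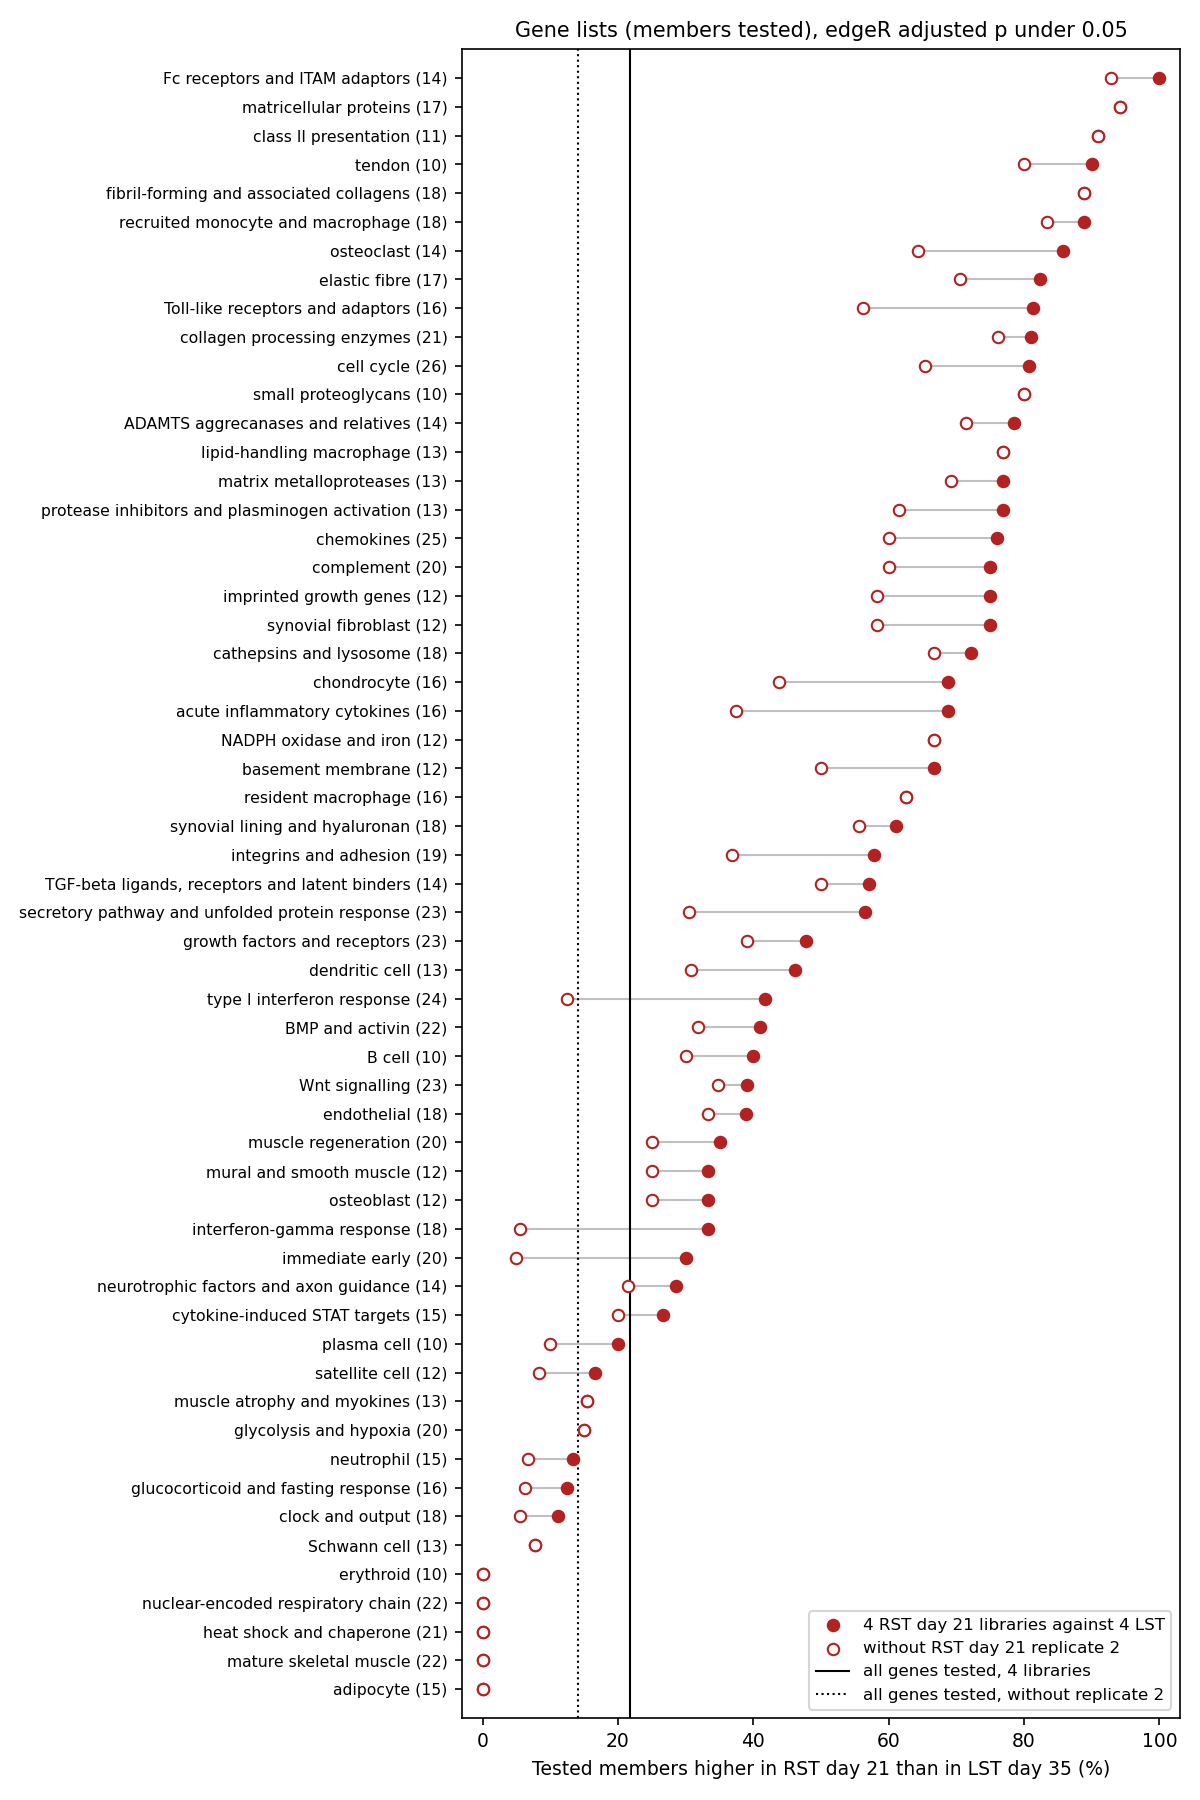
Share of tested members of each gene list that were higher in RST day 21 than in LST day 35 at an edgeR adjusted p under 0.05 (percent, lists with 10 or more tested members, number in brackets), with all 4 day 21 libraries as filled points and without replicate 2 as open points. The vertical lines mark all genes tested, 21.7% and 14.1%. Fc receptor, matricellular, class II and collagen lists lie far right of these lines in both settings, and the mature muscle, adipocyte, heat shock, erythroid and nuclear respiratory chain lists have no higher member.

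Granulocyte and lymphocyte lists are read beside the 21.7% of all genes that were higher, and 14.1% without replicate 2. Of the neutrophil list 2 of 15 tested members rose and 0 fell (median -0.04), and without replicate 2, 1 rose and 0 fell (median -0.63). Its summed CPM was 8.88 to 82.4 in RST day 21 and 5.58 to 69.9 in LST. S100a9, an abundant neutrophil calcium-binding protein, measured 4.92, 27.9, 2.25 and 9.22 CPM in RST day 21, against 17.1, 2.69, 7.41 and 1.64 CPM in LST day 35, highest in day 21 replicate 2 and next in LST replicate 1. The granule gene Ngp was highest in LST replicates 1 and 3, at 2.32, 5.36, 1.32 and 5.90 CPM in RST day 21, against 13.9, 1.505, 6.35 and 0.614 CPM in LST day 35. Csf3r, the receptor for the neutrophil growth factor, rose in both settings (log2 fold change 3.18 and, without replicate 2, 2.13). Of the B cell list 4 of 10 tested members rose and 0 fell (3 higher without replicate 2), led by Cd22, an inhibitory co-receptor (log2 fold change 2.55 ± 0.52), with summed CPM of 58.4 to 65.5 in RST day 21 and 34.7 to 63.4 in LST. Of the plasma cell list 2 of 10 tested members rose and 0 fell (1 higher without replicate 2), with summed CPM of 122 to 179 in RST day 21 and 99.3 to 127 in LST. Sdc1, a syndecan also made by epithelial and mesenchymal cells, had a log2 fold change of 3.02 ± 0.35, and the immunoglobulin joining chain gene Jchain 0.16 (adjusted p 0.795). Of the T cell list 16 genes were sought, 8 passed the filter and 4 rose (1 without replicate 2). Il7r, the interleukin 7 receptor, measured 1.53, 4.48, 1.26 and 2.03 CPM in RST day 21, against 0.330, 0.0912, 0.298 and 0.102 CPM in LST day 35 (log2 fold change 3.48 ± 0.57), and Cd3e, a chain of the T cell receptor complex, had -0.40 (adjusted p 0.445). Cd4, Lck and Trbc2 passed with replicate 2 and not without it, and the summed CPM of the T cell list was 8.94 to 13.2 in RST day 21 and 7.30 to 9.16 in LST. Of dendritic cell genes 6 of 13 tested members rose and 0 fell, with 4 higher without replicate 2 and summed CPM of 55.2 to 114 in RST day 21 and 35.1 to 44.4 in LST. Fscn1, an actin bundler of mature dendritic cells and of other migrating cells, had a log2 fold change of 1.63 ± 0.22, while Xcr1 and Clec9a, which mark cross-presenting dendritic cells, had 0.02 and 0.30 and did not pass. Of cytotoxic and innate lymphoid genes 4 of 8 tested members rose and 1 fell, and without replicate 2, 0 rose and 1 fell, with 3 at an unadjusted p under 0.05 (edgeR). Of mast cell genes 2 of 6 tested members rose and 0 fell, and without replicate 2, 0 rose and 0 fell, with 2 at an unadjusted p under 0.05 (edgeR). Those that rose were Kit, the stem cell factor receptor, and Hdc, which makes histamine and is also expressed by other myeloid cells (0.95 ± 0.26 and 2.92 ± 0.79), while the proteases Cma1, Cpa3, Tpsb2 and Mcpt4 did not pass. The summed CPM of the mast cell list was 12.9 to 24.6 in RST day 21 and 9.44 to 16.1 in LST.

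Vessel and nerve lists are read beside the same shares of all genes. In the endothelial list 7 of 18 tested members rose and 0 fell (median 0.23, 6 higher without replicate 2), with summed CPM of 609 to 741 in RST day 21 and 479 to 625 in LST. The members that rose included Plvap, the diaphragm protein of fenestrated vessels, at 32.3, 55.5, 28.7 and 51.2 CPM in RST day 21, against 18.2, 16.00, 21.9 and 21.1 CPM in LST day 35 (log2 fold change 1.12 ± 0.17), and Aplnr and Apln, a receptor and ligand of sprouting vessels (1.63 ± 0.28 and 1.41 ± 0.24), while the pan-endothelial Cdh5 and Kdr had 0.19 and -0.14 and did not pass. Of mural and smooth muscle genes 4 of 12 tested members rose and 0 fell (3 higher without replicate 2), among them the pericyte proteoglycan Cspg4 (1.25 ± 0.23), and the summed CPM was 3301 to 4448 in RST day 21 and 4450 to 5003 in LST. In the Schwann cell list 1 of 13 tested members rose and 2 fell, and without replicate 2, 1 rose and 0 fell. Mbp, myelin basic protein, measured 18.6, 9.32, 18.9 and 11.8 CPM in RST day 21, against 23.9, 10.4, 54.9 and 35.7 CPM in LST day 35, with LST replicates 3 and 4 the highest, and its adjusted p was 0.0209 with and 0.0914 without day 21 replicate 2. The ranges of Mbp overlapped. Among neurotrophic and axon guidance genes 4 of 14 tested members rose and 0 fell (3 higher without replicate 2), a share near that of all genes, including Sema3a, a repellent of growing axons (1.34 ± 0.32), and Gap43, a growth cone protein (1.79 ± 0.42).

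Muscle was a large part of these samples. The summed CPM of the 22 mature skeletal muscle genes was 206300 to 268100 in RST day 21 and 264900 to 288800 in LST. None of them passed the test in either direction (edgeR, median log2 fold change -0.17), with or without replicate 2. Of these members 0 had an unadjusted p under 0.05 in edgeR, and DESeq2 also called 0. The fast myosin Myh4, skeletal actin Acta1 and creatine kinase Ckm had log2 fold changes of -0.08, -0.15 and -0.13. Genes of muscle regeneration were less even: 7 of 20 tested members rose and 1 fell, and without replicate 2, 5 rose and 0 fell. Of all genes tested 21.7% were higher, and 14.1% without replicate 2. Mymk, the myoblast fusion protein, measured 1.25, 1.25, 1.43 and 1.19 CPM in RST day 21, against 0.141, 0, 0 and 0.205 CPM in LST day 35 (log2 fold change 3.88 ± 0.70), and its partner Mymx had 52 counts over RST day 21 and 2 over LST, a ratio of 27.7 with a 95% counting interval of 7.29 to 235. Sln, sarcolipin, which lowers calcium uptake in muscle, measured 13.4, 9.20, 38.9 and 16.5 CPM in RST day 21, against 6.26, 1.46, 3.45 and 3.38 CPM in LST day 35, highest in replicate 3 and lowest in replicate 2 (log2 fold change 2.42 ± 0.59, adjusted p 0.00377). Runx1, which is induced in denervated and regenerating muscle and is also made by blood cells, had a log2 fold change of 3.01 ± 0.37. The master regulator Myod1, the embryonic myosin Myh3 and the satellite cell factor Pax7 had log2 fold changes of -0.52, 0.57 and 0.30 and did not pass. In the satellite cell list 2 of 12 tested members rose and 1 fell, and without replicate 2, 1 rose and 0 fell, with summed CPM of 225 to 230 in RST day 21 and 203 to 240 in LST. In the atrophy and myokine list 2 of 13 tested members rose and 1 fell, with the same counts without replicate 2. Mss51, a mitochondrial protein of glycolytic muscle, fell, at 71.5, 23.7, 24.8 and 32.2 CPM in RST day 21, against 121, 62.5, 141 and 71.2 CPM in LST day 35 (log2 fold change -1.38 ± 0.33, adjusted p 0.00285), with overlapping ranges.

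Adipocyte genes showed 1 lower and 0 higher of 15 (median -0.42), with the same counts without replicate 2 and summed CPM of 2852 to 5164 in RST day 21 and 3979 to 5224 in LST. The gene that fell was G0s2, an inhibitor of fat breakdown, at 21.4, 13.5, 23.1 and 14.1 CPM in RST day 21, against 38.5, 40.5, 44.4 and 31.1 CPM in LST day 35 with separate ranges. Erythroid and epidermal genes, which would mark blood or skin in the dissected tissue, showed none past the edgeR test among 10 and 3 tested. At an unadjusted p under 0.05 there were 1 erythroid and 0 epidermal genes, and DESeq2 called 0 of either. Their summed CPM was 204 to 231 and 14.2 to 18.2 in RST day 21, and 143 to 243 and 16.1 to 19.3 in LST, and the skin genes Ivl and Dsg1a had no count in any of the 8 libraries. What changes in the share of muscle, fat, nerve or blood contribute to the other results was not tested.

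Proliferation genes were higher in most cases. 21 of 26 rose, with a median log2 fold change of 1.85, and 17 rose without replicate 2 (median 1.44). Cenpf, a kinetochore protein, measured 2.94, 7.78, 1.37 and 3.42 CPM in RST day 21, against 0.707, 0.319, 0.469 and 0.205 CPM in LST day 35 (log2 fold change 3.19 ± 0.47). Mki67, the Ki-67 antigen, measured 11.5, 21.3, 4.39 and 11.1 CPM in RST day 21, against 5.13, 1.96, 2.68 and 1.995 CPM in LST day 35, and the ranges overlapped, with day 21 replicate 3 below LST replicate 1 (log2 fold change 2.05 ± 0.40). The ranges of 11 of the 26 members lay above those of LST, beside 18.9% of all genes tested. Top2a and Cdk1, needed for chromosome separation and mitotic entry, had 2.44 ± 0.43 and 2.84 ± 0.51, and Pcna, the replication clamp, had 0.16 (adjusted p 0.316). In the secretory pathway 13 of 23 tested members rose and 1 fell (median 0.39), and without replicate 2, 7 rose and 0 fell. Kdelr3, a retrieval receptor, and Creb3l1, a collagen-linked transcription factor, had log2 fold changes of 2.16 ± 0.28 and 1.68 ± 0.24.

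By edgeR with all libraries, heat shock and chaperone genes were the one list with several lower members and no higher one. In it 7 of 21 fell (median -0.26), and none passed without replicate 2, when 5 had an edgeR unadjusted p under 0.05. DESeq2 with all libraries called 10 lower. It also called 4 lower and 0 higher of the 22 nuclear respiratory chain genes. The counts of the lists below are read beside all genes tested, of which 21.7% were higher and 5.42% lower. Without replicate 2 these shares were 14.1% and 1.13%. Hspb6, a small heat shock protein of muscle, measured 856, 608, 912 and 719.9 CPM in RST day 21, against 1040, 1067, 1305 and 1068 CPM in LST day 35, without overlap, and its adjusted p was 0.0145 with replicate 2 and 0.0734 without it. Immediate early genes, which respond within minutes to dissection as well as to signals, rose in 6 of 20 with replicate 2 and 1 without it. The count without replicate 2 was below the share of all genes. Socs3, the feedback inhibitor of interleukin 6 family signalling, measured 15.4, 45.7, 14.04 and 21.3 CPM in RST day 21, against 8.34, 6.34, 5.37 and 6.86 CPM in LST day 35 (log2 fold change 1.85 ± 0.29). Clock genes went both ways, with 2 of 18 higher and 4 lower, and 1 and 3 without replicate 2: Arntl, the activator of the clock, had -0.59 ± 0.17 and its output Dbp 0.94 ± 0.32. The labels give no hour of collection. In the list of cytokine-induced STAT targets 4 of 15 tested members rose and 2 fell, and without replicate 2, 3 rose and 1 fell, with a fall in Pim1, a kinase (-0.51 ± 0.18). Of glycolysis and hypoxia genes 3 of 20 tested members rose and 2 fell, and without replicate 2, 3 rose and 0 fell. Of nuclear respiratory chain genes 0 of 22 tested members rose and 1 fell, with 0 lower without replicate 2, and of the 8 mitochondrially encoded genes tested none passed (edgeR, median log2 fold change -0.28, with 0 at an unadjusted p under 0.05 and 0 by DESeq2). In the glucocorticoid and fasting list 2 of 16 tested members rose and 0 fell, with 1 higher without replicate 2, below the share of all genes in both settings. Angptl4, a lipase inhibitor of the fasting response, rose, at 22.8, 43.8, 5.49 and 35.9 CPM in RST day 21, against 2.97, 2.14, 4.86 and 7.06 CPM in LST day 35 (log2 fold change 2.68 ± 0.49), with replicate 3 far below the other day 21 libraries.

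Imprinted growth genes, which are expressed in fetal and regenerating tissue, rose in 9 of 12 (median 0.78) and in 7 without replicate 2 (median 0.70). H19, a noncoding RNA, measured 1109, 1293, 1571 and 1550 CPM in RST day 21, against 853, 767, 1028 and 798 CPM in LST day 35. Igf2, its neighbour and a growth factor, measured 4.30, 5.93, 8.01 and 7.98 CPM in RST day 21, against 3.25, 3.33, 2.77 and 3.07 CPM in LST day 35. In both genes replicates 3 and 4 were the highest and replicate 1 the lowest, so the order of the day 21 libraries was not that of the matrix genes. Their log2 fold changes were 0.68 ± 0.14 and 1.08 ± 0.23 with replicate 2, and 0.70 and 1.12 without it. Plagl1, a transcription factor of this network, and Mest had 2.09 ± 0.32 and 2.10 ± 0.34.

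The largest rises over all genes, among those that passed in both settings with separate ranges and a mean of at least 50 counts in the higher group, were drawn from 1683 eligible genes. The first 12 were Acod1, Clec4e, Cxcl2, Il1rn, Saa3, Mmp12, Tnn, Brinp3, Cxcl5, Acan, Cthrc1 and Slc7a11. The mean count and the ranking included replicate 2. Acod1, Clec4e, Cxcl2, Saa3, Cxcl5 and Slc7a11 were also among the largest gaps between replicate 2 and the other day 21 libraries. The day 21 mean of Slc7a11 was 3.94 CPM with replicate 2 and 0.957 CPM without it. Il1rn encodes the interleukin 1 receptor antagonist, and Cthrc1 a secreted protein of collagen-producing fibroblasts. Brinp3, a gene known from the nervous system, measured 2.09, 10.4, 2.19 and 1.24 CPM in RST day 21, against 0.141, 0, 0.0426 and 0 CPM in LST day 35 (log2 fold change 6.31 ± 0.99). Among the 12, Mmp12 lost least without replicate 2, with log2 fold changes of 6.54 and 6.36, and Slc7a11 had 6.01 with that library and 3.93 without it.

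By the same limits on counts, ranges and both fits, 140 genes were eligible among the falls. Of these, the largest falls, G0s2 and Slc1a1, a glutamate transporter, were followed by Hist1h4i, Atp13a5, Thpo, Rtn1, Mrgprh, Sctr, Padi2, Bex1, Wfikkn2 and Stab2. Hist1h4i, a histone H4 gene, measured 11.3, 9.15, 11.02 and 9.02 CPM in RST day 21, against 17.9, 21.9, 15.97 and 17.7 CPM in LST day 35 (log2 fold change -0.86 ± 0.14, adjusted p 0.000103). Wfikkn2, which binds and inhibits myostatin, measured 17.04, 13.3, 16.8 and 13.1 CPM in RST day 21, against 24.02, 24.3, 23.8 and 23.9 CPM in LST day 35 (log2 fold change -0.68 ± 0.14). Padi2, a peptidylarginine deiminase of muscle and other tissues, measured 266, 178, 287 and 201 CPM in RST day 21, against 363, 397, 430.2 and 322 CPM in LST day 35 (log2 fold change -0.70 ± 0.19). Thpo, thrombopoietin, and Sctr, the secretin receptor, had log2 fold changes of -0.75 ± 0.20 and -0.74 ± 0.18. G0s2 had the lowest log2 fold change of these 12, at -1.10 ± 0.25.

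Comparisons with the neighbouring RST days hold the label constant, and they share the day 21 libraries with the comparison against LST. Against RST day 14, 14 genes were higher (0.0867%) and 105 lower (0.65%) with all libraries, and 1756 (10.7%) and 2710 (16.5%) without replicate 2. The largest falls were Nrk, a kinase of fetal tissue, Mest, Egfl6, an adhesion protein of growing tissue, and Dlk1, an imprinted Notch-family protein, with log2 fold changes of -2.10 ± 0.31, -1.99 ± 0.30, -1.88 ± 0.29 and -1.63 ± 0.34 against RST day 14, beside 1.36, 2.10, 1.63 and 1.22 against LST. Among the largest rises were Trim63, a ubiquitin ligase of muscle atrophy, Celf2, a splicing regulator, and Thrb, a thyroid hormone receptor, at 0.69 ± 0.16, 0.57 ± 0.10 and 0.52 ± 0.12. Against day 14 chondrocyte genes had 0 higher and 9 lower of 16 (median -1.70), and imprinted genes had 0 higher and 6 lower of 12, beside a median of -0.02 over all genes. Collagens gave 0 higher and 2 lower, and without replicate 2, 0 higher and 16 lower. The counts turned on single libraries and on the fit: leaving out each library of the groups compared in turn gave 1 to 1756 higher and 1 to 2710 lower genes, and an edgeR fit of these 8 libraries alone called 0, with 2224 genes at an unadjusted p under 0.05, against 582 higher and 636 lower by DESeq2.

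Against RST day 35, 628 genes were higher (3.89%) and 13 lower (0.0805%), and without replicate 2, 34 (0.207%) and 1 (0.00609%). The gene lower without replicate 2 was Ccdc3, a secreted protein of fat and endothelium, which had -0.97 ± 0.21 with that library and -1.08 ± 0.23 without it. The largest rises were Prss35, a secreted serine protease, Cxcl5, Postn and Tnn, at 3.58 ± 0.75, 2.84 ± 0.70, 2.66 ± 0.36 and 2.61 ± 0.41, and Postn and Tnn also passed without replicate 2 (2.04 and 1.73, adjusted p 0.00323 and 0.0039). The other falls named were G0s2, Gstm7, a glutathione transferase, and Pou4f1, a neuronal transcription factor, at -1.04 ± 0.25, -0.90 ± 0.22 and -0.53 ± 0.14. Of the 18 collagens 15 were higher with replicate 2 and 4 without it, of the 17 matricellular genes 12 and 5, of the 12 imprinted genes 8 and 3, and of the 26 cell cycle genes 7 and 0, and no member of these lists was lower. Leaving out each library in turn gave 34 to 1784 higher and 0 to 100 lower genes, and an edgeR fit of the 8 libraries alone called 0, with 2763 at an unadjusted p under 0.05, against 1128 higher and 88 lower by DESeq2.

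Single genes took different courses over the days. The mean CPM of Postn was 674 ± 73.9 at RST day 3, 2039 ± 143 at day 7, 736 ± 418 at day 14, 301 ± 215 at day 21 and 47.7 ± 11.7 at day 35 (SD, n = 4 each), beside 11.7 ± 1.60 in LST. Acan measured 9.07 ± 1.25, 153 ± 28.6, 101 ± 42.9, 31.9 ± 24.9 and 5.42 ± 1.18 CPM over the same days, beside 0.444 ± 0.194 in LST. Mmp12 measured 8.71 ± 3.53, 28.7 ± 7.27, 36.6 ± 11.4, 16.6 ± 4.60 and 14.4 ± 7.10 CPM, beside 0.176 ± 0.0334 in LST. Postn and Acan were highest at day 7, and Mmp12 had its highest mean at day 14 and stayed above LST in every RST library.

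**Figure D5:**
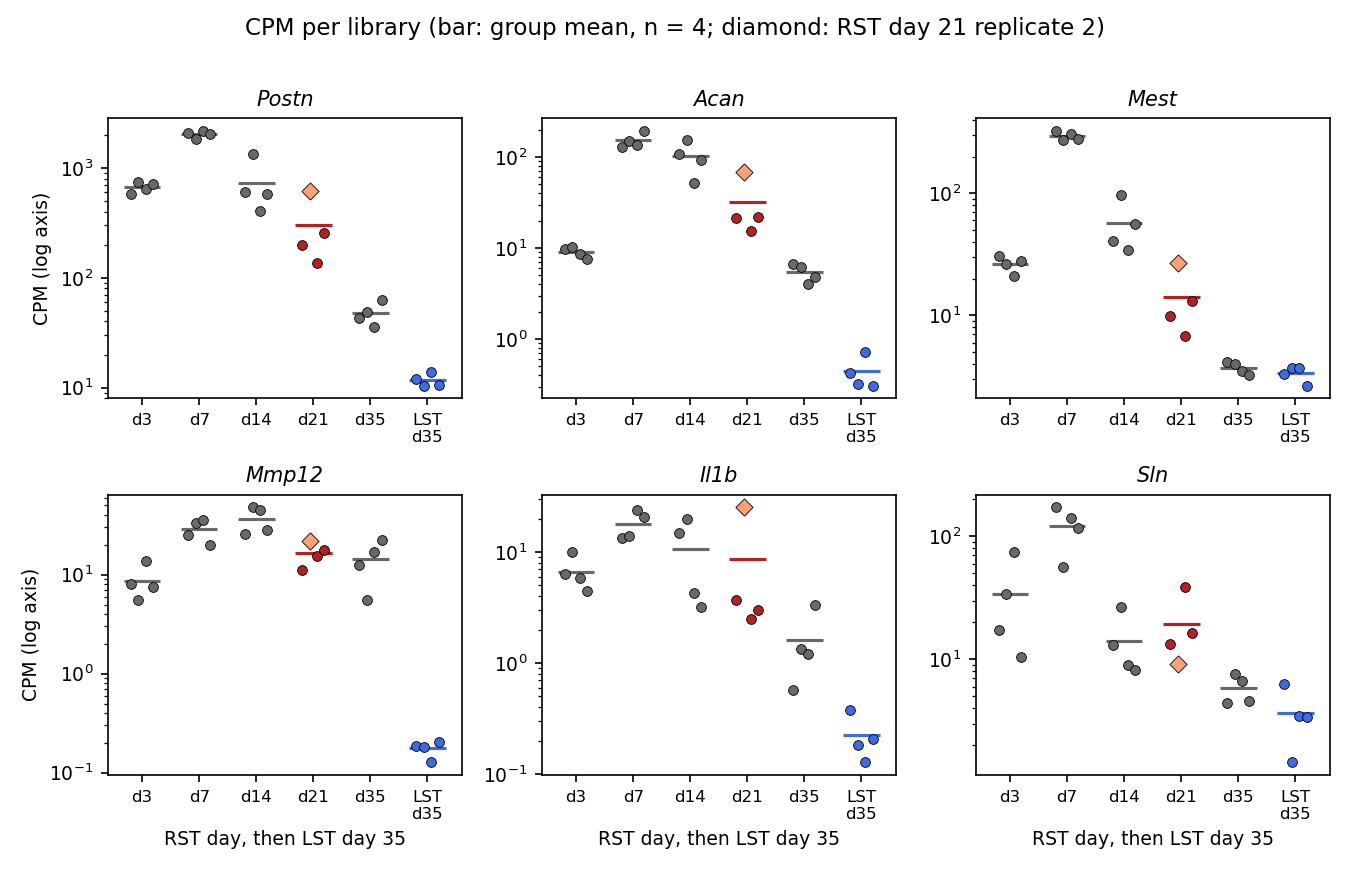
CPM on a log axis of Postn, Acan, Mest, Mmp12, Il1b and Sln in the 24 joint soft tissue libraries by RST day (3, 7, 14, 21 and 35), with LST day 35 at the right, a bar for each group's mean (n = 4) and RST day 21 replicate 2 as a diamond. Postn, Acan and Mest decline after day 7, Mmp12 at day 21 and at day 35 overlap, Il1b at day 21 is set by replicate 2, at 25.2 CPM against 2.47 to 3.68 CPM in the other 3 libraries, and Sln is lowest in that replicate.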

How the data were processed

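RNA-seq of joint soft tissue was deposited as raw counts per gene, 1 column per library; per the submitters' processing notes the authors used fastp, STAR and the mm10 build, with the counting tool, annotation and strand setting not given in the sources used here, so overlapping and antisense genes may share reads. The counts of 24 joint libraries (6 groups of 4) were fitted together with edgeR 4.0.16 (R 4.3.3): filterByExpr with a minimum count of 10, TMM factors, quasi-likelihood F test, Benjamini-Hochberg adjusted p under 0.05 over all genes tested, no block. CPM are on the TMM scale, and SE is the log2 fold change divided by the square root of F. The fit was repeated without RST day 21 replicate 2. Gene positions come from GENCODE M21 (36591 of 36604 identifiers matched), promoters from RefSeq. Counting intervals are exact at 95% and cover counting error only.

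Genes named are the 12 largest rises and falls past the threshold in both fits with a mean of at least 50 counts and separate ranges, the 4 largest each way against RST days 14 and 35, the 8 largest gaps of replicate 2, and list members by adjusted p or role. Predicted genes, pseudogenes and single receptor segments were left out, and some genes that these rules name are not reported here. The libraries, the 62 gene lists and these rules were chosen with earlier results of these data known. Alternatives used DESeq2 1.42.0 and limma 3.58.1 (voom with quality weights), other scaling and filters, the replicate number as a block, and leaving out each library. The fit was tested on simulated data. Pairs of replicates within a group differed by more than counting noise (chi-square per degree of freedom 8.27 to 79.89), so none was a copy of another. Each was counted as 1 sample, but this check cannot tell whether they came from separate animals.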

Additional observations from a re-analysis of the deposited data

Results flagged for a closer look

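Across 448 groups of 4 libraries (220 genes chosen by the naming rule or among the first by adjusted p in a list, with total counts, the mitochondrial share and both principal component scores, in each of RST day 21 and LST), a library lay far from the other 3 of its group in 20 cases, by a gap above the 95% critical value of Dixon's test, taken as a share of the group's range in log2 CPM. The same library could be flagged for several genes. For independent groups chance alone would give about 1 in 20, and 20 of 448 is not more than that. The genes were selected and were measured in the same 8 libraries, so the groups are not independent. The count therefore cannot tell whether a library deviates. The values given are that share.

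RST day 21 replicate 2 was the high library for the chemokine genes Cxcl2 (0.853) and Cxcl5 (0.863), for Il1b (0.831) and for Il33, an alarmin (0.915). It was also the high library for Ltbp1, which holds latent TGF-beta in the matrix (0.885), Ncam1, an adhesion molecule (0.892), and Slc7a11 (0.892). RST day 21 replicate 4 was high for Dmp1 (0.909).

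Among the LST libraries, replicate 2 was low for Col4a2, a basement membrane collagen (0.884), Gas6, a ligand of clearance receptors (0.887), Igfbp7 (0.834), Inhbb (0.831), Lgals3 (0.846) and Sfrp4 (0.844). LST replicate 3 was high for Hspb6 (0.881), the mast and stem cell receptor gene Kit (0.840) and the natural killer receptor gene Klrd1 (0.842), and low for Tnfsf11 (0.911). LST replicate 4 was high for Mymx (1.0), since the other 3 LST libraries had no count of it. LST replicate 1 was high for Tap1, a peptide transporter of class I presentation (0.849). No cause of these deviations was tested.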

How the results depend on the processing

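The direction of each of the 220 list and named genes checked was kept under every alternative. DESeq2 ended the call of none of them, limma voom of 12, a fit of only the groups compared of 9 of 212, and the fit without RST day 21 replicate 2 of 33. All 220 were chosen as past the threshold against LST in the main fit. The 12 largest rises and falls among them were also required to pass without replicate 2. These tallies therefore do not describe the calls over all genes. Against LST, DESeq2 called 1486 lower genes, and an edgeR fit of only the groups compared called 2540 higher and 901 lower. Leaving out 1 library gave 2316 to 3765 higher and 186 to 1172 lower genes, with the lowest counts without RST day 21 replicate 2 and the highest without replicate 3. The lower count was also 430 without RST day 21 replicate 4, 455 without LST replicate 2 and 502 without LST replicate 3. The share of higher genes among the calls was 80%, against 70% with DESeq2. Against RST day 14, the higher and lower genes numbered 582 and 636 with DESeq2, 658 and 1441 with voom, and 8 higher with no filter. Leaving out a library gave 1 to 1756 higher and 1 to 2710 lower genes: 1 and 14 without RST day 14 replicate 1, 1 and 3 without replicate 2, 378 and 944 without replicate 3 and 12 and 54 without replicate 4, and 1 and 1, 1756 and 2710, 1 and 3, and 3 and 12 without RST day 21 replicates 1, 2, 3 and 4. Against RST day 35, DESeq2 gave 1128 and 88, voom 263 higher, and no filter 7 lower, and leaving out a library gave 34 to 1784 higher and 0 to 100 lower. The counts were 1256 and 94, 34 and 1, 1784 and 100, and 189 and 2 without RST day 21 replicates 1, 2, 3 and 4, and 66 and 1, 52 and 0, and 41 and 0 without RST day 35 replicates 1, 2 and 3. In edgeR fits of only the groups compared, both neighbouring-day comparisons gave 0 higher and 0 lower genes, while 2224 against day 14 and 2763 against day 35 had an unadjusted p under 0.05. The cause of these changes was not tested.

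The labels give no source for the replicate numbers beyond the number, and the samples were not treated as pairs: deviations of same-numbered libraries correlated at -0.155 to 0.017 between RST day 21 and LST, and at 0.092, 0.678, 0.473 and 0.127 between RST day 21 and RST day 14 and at 0.059 to 0.118 between RST day 21 and RST day 35, so in neither comparison of RST days was every pair over 0.1. Against RST day 14, day 21 replicates 2, 3 and 4 correlated best with the library of the same number, and replicate 1 with another number (0.293). With the replicate number as a block, 3469 genes were higher and 976 lower against LST, 54 and 318 against RST day 14, and 502 and 11 against RST day 35.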
